A study of Mus musculus with 12 samples.

Results

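The cytosolic ribosomal protein genes encode the proteins that, with ribosomal RNA, build the large and the small subunit of the ribosome outside mitochondria. The large subunit joins amino acids and carries the stalk, made of the products of *Rplp0*, *Rplp1* and *Rplp2*, which recruits translation factors, while the small subunit binds the mRNA and reads its codons. Their mRNAs are abundant in every cell, and in mammals they belong to the TOP mRNAs, which start with a run of pyrimidines and whose translation follows the activity of the kinase complex mTORC1. In neurons part of this translation machinery lies in dendrites and axons.

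Their expression was examined in the hippocampus of 12 male mice aged 18 months, with 1 Affymetrix Mouse Gene 2.0 ST array per mouse. Wild-type and App knock-in mice were each fed a control diet (RD) or a high-fat diet (HFD) for 12 months, which gave 4 groups of 3 mice. In the knock-in strain, App NL-F/NL-F, the mouse's own *App* gene encodes human Aβ and bears both the Swedish and the Iberian mutation, so that no transgene promoter drives it. The labels call HFD-fed mice of either genotype diabetic and RD-fed mice non-diabetic, so that diet and diabetes status cannot be told apart. All mice were perfused with saline before the hippocampus was taken.

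Genes were chosen by name alone. A gene entered if the platform paired a transcript cluster, the group of probes that stands for a gene, with a single symbol beginning with Rpl or Rps and a digit, or with Rpsa, Rplp0, Rplp1 or Rplp2. Ribosomal S6 kinases, *Rps19bp1* and symbols marked as pseudogenes by "-ps" were left out, and where a gene had several clusters the brightest one was taken. This gave 68 genes, 42 of the large and 26 of the small subunit, out of 22180 named genes. They held 109 clusters, and 25 genes had several. Of the 68, 58 belong to the canonical set of ribosomal proteins, 35 of the large and 23 of the small subunit. The other 10 genes were paralogs or relatives, namely *Rpl3l*, *Rpl6l*, *Rpl7l1*, *Rpl10l*, *Rpl22l1*, *Rpl32l*, *Rpl39l*, *Rps4l*, *Rps23rg1* and *Rps27l*. RefSeq annotated *Rpl6l* as a pseudogene and *Rps4l* as a transcribed pseudogene. A further 12 canonical genes did not enter because they shared every cluster with another symbol (*Rpl10*, *Rpl12*, *Rpl13a*, *Rpl23*, *Rpl24*, *Rpl31*, *Rpl35a*, *Rpl36*, *Rpl36a*, *Rps2*, *Rps15a* and *Rps21*). Ribosomal protein genes have many near-identical processed copies in the genome, and probes that match several copies cannot separate them, so that a value may hold signal of a copy.

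RefSeq gave a promoter window of 300 bases for 53 of the 68 genes, 250 before and 50 from the annotated start. A start of the TOP kind, read here as a C at the annotated start followed by at least 4 further pyrimidines, was found in 11 of these 53 genes (20.8%) and in 813 of all 27025 genes with a window (3.01%). The 30 bases around the start, 15 on each side, follow for the 5 of these 11 that are described with values below, and for *Rplp0* and *Rpl11*, whose annotated starts carry no such run. Capitals mark the pyrimidine run from the start. All are given 5′ to 3′ on the strand of the gene, from RefSeq on GRCm38.p6.
Rplp2, chr7:141447636-141447665, plus strand: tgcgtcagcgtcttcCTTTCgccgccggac
Rpl15, chr14:18270972-18271001, minus strand: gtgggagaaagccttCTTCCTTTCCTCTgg
Rpl32l, chr10:20208424-20208453, plus strand: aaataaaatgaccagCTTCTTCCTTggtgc
Rps6, chr4:86857353-86857382, minus strand: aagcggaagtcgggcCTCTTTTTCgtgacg
Rps27, chr3:90213634-90213663, minus strand: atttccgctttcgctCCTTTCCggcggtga
Rplp0, chr5:115559452-115559481, plus strand: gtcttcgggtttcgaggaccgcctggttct
Rpl11, chr4:136053379-136053408, minus strand: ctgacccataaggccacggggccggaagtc

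The run was 5 bases long in *Rplp2*, 7 in *Rps27*, 9 in *Rps6*, 10 in *Rpl32l* and 13 in *Rpl15*. A run read this way is only as exact as the annotated start. On either strand of the 300 bases, CTTTC was present in 42 of 53 genes (79.2%) against 60.6% of all genes. CTTTTC was present in 16 (30.2%) against 24.3%, and CTCTTTCC, which contains CTTTC, in 6 (11.3%) against 3.57%. These are matches of letters in a window and were not tested.

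The 68 genes fell into a bright and a dim part on these arrays. A mean above an intensity of 100, which corresponds to a log2 expression of 6.64, was reached by 36 genes, 22 of the large and 14 of the small subunit. Their means over the 12 mice ranged from 6.71 to 12.23 on the log2 scale, and those of the 32 dim genes from 2.57 to 6.18. The value of a dim gene is close to the signal that most clusters give, since the median log2 value of all clusters on an array was 4.78 to 4.84. Levels of different genes come from different probes and were not ranked. Across all clusters, the r between arrays was 0.982 to 0.988, between 23.6% and 24.3% of clusters lay above an intensity of 100, and no array stood apart. All 8 measured neuronal and all 8 measured hippocampal neuron markers had means above an intensity of 100.

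Replicate mice differed little in the bright genes. The SD within groups, pooled over the 4 groups, had a median of 0.072 on the log2 scale in the 36 bright genes, against 0.084 in the 7097 named genes above an intensity of 100. It was 0.18 in both the 32 dim genes and the 15083 dim named genes. The steadiest were *Rpl21* (SD 0.022), *Rpl19* (SD 0.043), *Rpl4* (SD 0.044) and *Rps12* (SD 0.045), which encode structural proteins of both subunits. The widest were *Rps15* (SD 0.41), *Rpl30*, *Rplp2* and *Rps16* (SD 0.39 each), all of them dim.

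No ribosomal protein gene passed an adjusted p of 0.05 from limma, fitted over all 41345 clusters, in any of the 5 group comparisons, in the genotype effect, in the diet effect, in their interaction or in the F test over the 4 groups. In the same fits 1 cluster was called in the genotype effect (0.00242% of those tested) and none in the others (0.0% of those tested). The 5 group comparisons share groups and are not independent of each other. At an unadjusted p under 0.05 there were 3 of 68 genes when RD-fed App knock-in mice were compared with RD-fed wild-type mice (6.18% of all clusters), and 1 when HFD-fed App knock-in mice were compared with HFD-fed wild-type mice (5.31%). There were 3 for the HFD against the RD in wild-type mice (5.22%) and 3 in App knock-in mice (4.62%). The comparison of HFD-fed App knock-in with RD-fed wild-type mice gave 3 (5.19%), the genotype effect 3 (6.47%), the diet effect 5 (4.97%) and the interaction 1 (4.97%). As a share of the 68 genes, the count was above that of all clusters for the diet effect and below it elsewhere. Counts of 1 to 5 genes are too few for a close comparison of shares.

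The bright genes were measured closely enough to bound their differences. For all 36, the 95% confidence interval of the log2 difference lay within a 1.5-fold change in either direction in each of the 5 group comparisons and in the genotype and diet effects. Of all clusters above an intensity of 100, the same limit was met by 93.3% in each genotype comparison within a diet, 93.8% by diet in wild-type and 93.7% in App knock-in mice, 93.9% for HFD-fed App knock-in against RD-fed wild-type mice, 97.6% for genotype and 98.3% for diet. For the interaction, whose error is larger, 33 of 36 intervals lay within the limit, against 84.3% of those clusters. *Rpl21*, a structural protein of the large subunit, was the steadiest, and its HFD-fed App knock-in mice lay below their RD-fed counterparts by only 0.023.

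**Figure D1:**
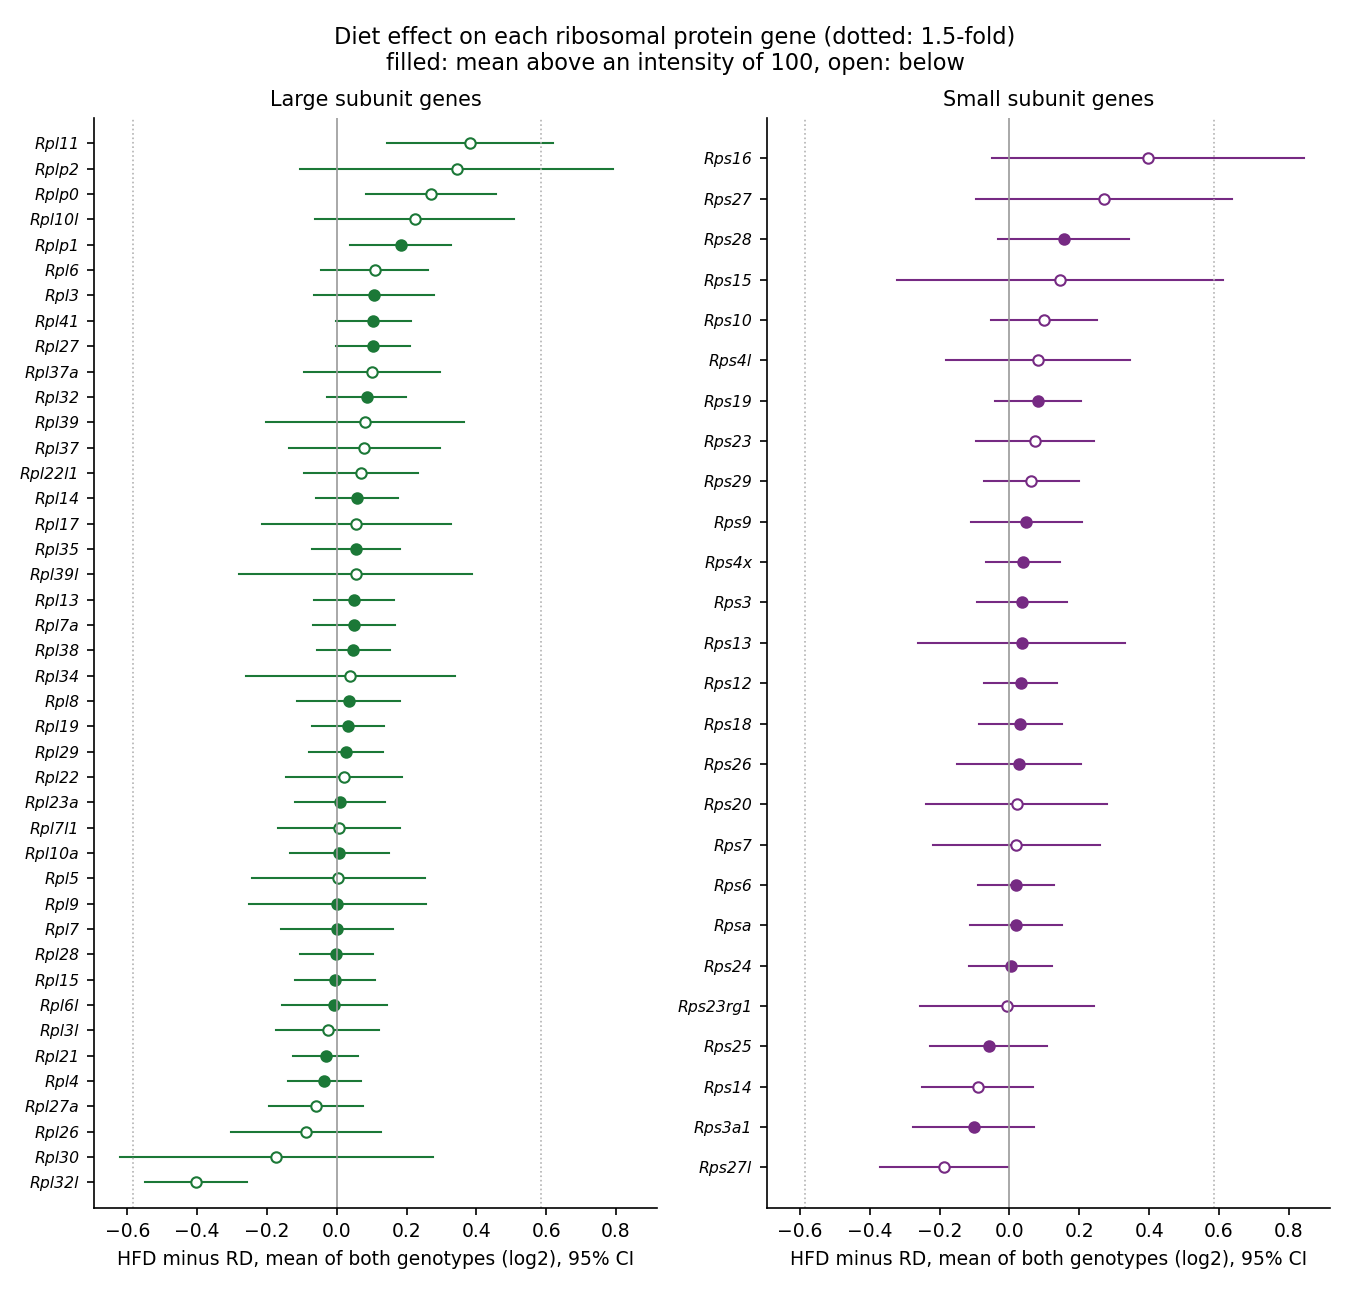
Diet effect of each of the 68 genes, as the log2 difference of HFD-fed minus RD-fed mice averaged over both genotypes, with its 95% confidence interval from limma (horizontal axis), large subunit on the left and small subunit on the right. Of the points 53 lie to the right of 0, and all 36 filled points, the genes above an intensity of 100, have intervals inside the dotted lines at a 1.5-fold change.

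Differences were small but leaned upward on the HFD. Averaged over both genotypes, 53 of the 68 genes had higher means in HFD-fed mice, 32 of 42 in the large and 21 of 26 in the small subunit, while 49.6% of all clusters did. These counts rest on the brightest cluster of each gene. Of the 24 genes whose clusters differed in value, only 14 had the same direction by diet in all of them. The median log2 difference was 0.035 over the 68 genes, 0.043 over the large and 0.033 over the small subunit, against -0.0009 over all clusters. Among the bright genes the count was 29 of 36 with a median of 0.032, where 50.3% of all clusters above an intensity of 100 were above 0. A count of genes in 1 direction carries no test here, since the genes share the same 12 RNA samples, and no gene in it passed an adjusted p of 0.05. Leaving out 1 mouse at a time gave counts of 46 to 53, with 46 without mouse 1 of the RD-fed App knock-in group. The median ran from 0.026 to 0.0497 over the 68 genes. It ran from 0.020 (without mouse 2 of the RD-fed App knock-in group) to 0.059 over the large subunit, and was 0.027 without mouse 2 of the HFD-fed App knock-in group and 0.029 without mouse 2 of the RD-fed wild-type group. Over the small subunit it ran from 0.022 (without mouse 3 of the RD-fed wild-type group, and also without mouse 2 of the HFD-fed App knock-in group) to 0.053 (without mouse 2 of the RD-fed wild-type group). In bulk tissue a change of RNA per cell and a change in the mix of cells cannot be told apart.

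Within each genotype the lean was larger in App knock-in mice. There, 50 of 68 genes had higher means on the HFD, against 49.6% of all clusters, with medians of 0.055 over all genes, 0.072 over the large and 0.039 over the small subunit. In wild-type mice 42 of 68 had higher means, against 49.6% of all clusters, with medians of 0.019, 0.018 and 0.022. Without mouse 2 of the HFD-fed wild-type group these were 0.0043, 0.0071 and 0.0043, and without mouse 2 of the RD-fed wild-type group the median was 0.037 over the 68 genes and 0.093 over the small subunit. In App knock-in mice the small subunit median was 0.022 without mouse 1 of the RD-fed group. The difference between the genotypes, the interaction, had a median of 0.039 over the 68 genes and was above 0 in 45, against 49.9% of all clusters. Among the bright genes it was above 0 in 27 of 36, against 55.5% of all clusters above an intensity of 100. The lean was not particular to these genes, since 47 of 71 mitochondrial ribosomal protein genes were above 0, with a median of 0.068. Leaving out 1 mouse gave interaction medians of 0.016 (without mouse 3 of the HFD-fed wild-type group) to 0.062 over the 68 genes. Over the small subunit the median was 0.052, and it ran from 0.0076 (without mouse 1 of the RD-fed App knock-in group) to 0.079 (without mouse 2 of the HFD-fed wild-type group). In App knock-in mice the HFD-fed and RD-fed mice did not overlap in 8 genes that were higher on the HFD (4.98% of all clusters) and in 2 that were lower (4.64%). The 8 were *Rplp0*, *Rpl3*, *Rpl6l*, *Rpl11*, *Rpl27*, *Rpl38*, *Rpl41* and *Rps27*, and the 2 were *Rpl21* and *Rpl32l*. In wild-type mice there were 6 such genes that were higher (5.3% of all clusters) and 3 that were lower (5.03%).

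Averaged per mouse, the large subunit genes separated the diets in App knock-in mice. As the mean deviation of the 42 genes from their own means over the 12 mice, the HFD-fed App knock-in mice had log2 values of 0.021, 0.044 and 0.024, and their RD-fed counterparts -0.036, -0.081 and 0.0042. The HFD-fed wild-type mice had 0.031, 0.025 and -0.0047, and the RD-fed wild-type mice -0.0011, -0.033 and 0.0070. Thus the HFD-fed App knock-in mice all lay above the RD-fed ones, while the wild-type groups overlapped. The group means were 0.030 ± 0.013 (SD, n = 3) against -0.038 ± 0.043 (SD, n = 3) in App knock-in mice and 0.017 ± 0.019 (SD, n = 3) against -0.0091 ± 0.021 (SD, n = 3) in wild-type mice.

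The small subunit genes gave no such separation. Their mean deviations were -0.044, 0.053 and 0.059 in HFD-fed and -0.14, -0.038 and 0.015 in RD-fed App knock-in mice. They were 0.0099, 0.067 and -0.0008 in HFD-fed and -0.043, 0.080 and -0.016 in RD-fed wild-type mice. Mouse 1 of the RD-fed App knock-in group was the lowest of the 12 and mouse 2 of the RD-fed wild-type group the highest, so that the groups overlapped in both genotypes. In App knock-in mice the small subunit group means were 0.023 ± 0.058 (SD) on the HFD and -0.055 ± 0.080 (SD) on the RD. In wild-type mice they were 0.025 ± 0.036 (SD) on the HFD and 0.0071 ± 0.064 (SD) on the RD. The diet means thus lay further apart than for the large subunit in App knock-in mice, and closer together in wild-type mice. The overlap of the small subunit groups went with a wider spread between mice. The SD of the per-mouse mean within groups was 0.062 for the small and 0.026 for the large subunit. The large minus the small subunit mean ranged from -0.11 to 0.11 over the 12 mice and overlapped between all groups. In mouse 1 it was positive in every group, at 0.041 (RD) and 0.021 (HFD) in wild-type and 0.107 and 0.066 in App knock-in mice. In mouse 2 it was negative in every group, at -0.11, -0.042, -0.043 and -0.0082 in the same order. The labels do not say what a replicate number shares, and this pattern was not tested.

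**Figure D2:**
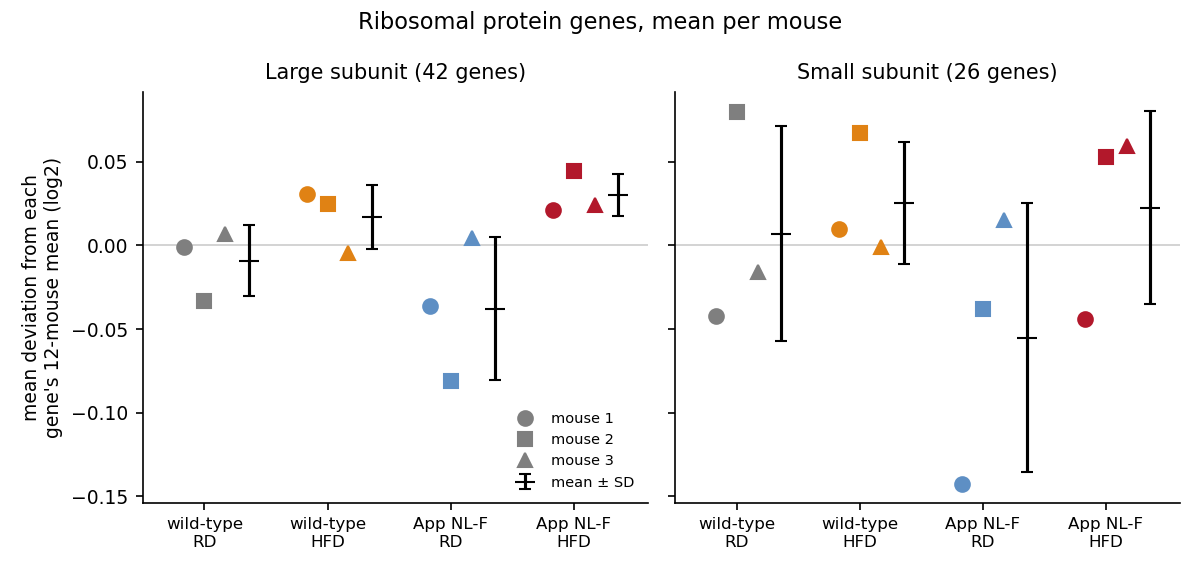
Mean deviation per mouse (vertical axis, log2) of the 42 large subunit genes (left) and the 26 small subunit genes (right) from each gene's mean over 12 mice, by group, with symbols for mouse 1 to 3 and black bars for the group mean ± SD. For the large subunit the HFD-fed App knock-in mice, at 0.021 to 0.044, lie above the RD-fed ones, at -0.081 to 0.0042, while all groups overlap for the small subunit.

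Means of some marker lists also differed between the same groups. No marker passed an adjusted p of 0.05 for diet in either genotype, and the smallest in App knock-in mice was 0.999 (limma). In App knock-in mice, all 5 measured oligodendrocyte markers were higher on the HFD, with a median log2 difference of 0.23, and their summed intensity was 2897.8 to 3096.6 in HFD-fed and 2224.2 to 2918.3 in RD-fed mice. All 5 were higher in wild-type mice as well, with a median of 0.13. Of the 8 hippocampal neuron markers, 7 were higher in App knock-in mice on the HFD, with a median of 0.18, and 3 in wild-type mice, with a median of -0.049. In App knock-in mice all 7 measured choroid plexus markers were lower on the HFD, with a median of -0.48. Their summed intensity ran from 701.1 to 10034 in HFD-fed and from 827.4 to 11051 in RD-fed App knock-in mice. In wild-type mice 6 of the 7 were higher on the HFD, with a median of 0.080. For thalamus and neighbouring regions, 4 of 5 markers were higher on the HFD in App knock-in mice. Mouse 1 of the HFD-fed App knock-in group had a summed intensity of 708.9 where the other 11 mice had 349.4 to 465.4. Mouse 1 of the RD-fed App knock-in group, with the lowest small subunit mean, was also the lowest of the 12 in the mean of the oligodendrocyte, choroid plexus, thalamus and hippocampal neuron markers. In the mean of the 8 neuronal markers the same mouse was the highest of the 12, with a log2 deviation of 0.072. In wild-type mice all 6 endothelial markers were higher on the HFD, with a median of 0.28, and in App knock-in mice 3 of 6 were, with a median of 0.0096. In App knock-in mice 3 of 8 neuronal markers (median -0.024), 3 of 6 astrocyte markers (median 0.0025) and 6 of 8 microglia markers (median 0.081) were higher on the HFD. The part of these shifts in the ribosomal protein values was not tested.

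The 3 stalk genes had higher means on the HFD. *Rplp0*, the base of the stalk, was dim. Its log2 values were 5.90, 6.12 and 6.16 in RD-fed and 6.37, 6.36 and 6.13 in HFD-fed wild-type mice. App knock-in mice had 5.82, 6.08 and 6.19 on the RD and 6.23, 6.38 and 6.43 on the HFD. All HFD-fed App knock-in mice were above the RD-fed ones, and the wild-type groups overlapped. The diet effect was a log2 difference of 0.27 (standard error 0.084, limma adjusted p = 0.937). A further, dimmer cluster of *Rplp0* had a difference of -0.042, and the mean of both clusters gave 0.11.

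*Rplp1*, a stalk protein that binds translation factors, was among the bright genes. Its log2 values were 10.56, 10.71 and 10.72 in RD-fed and 10.77, 10.89 and 10.85 in HFD-fed wild-type mice. They were 10.44, 10.52 and 10.72 in RD-fed and 10.66, 10.80 and 10.81 in HFD-fed App knock-in mice. The wild-type groups did not overlap, and the App knock-in groups did. The diet effect was 0.18 (standard error 0.066, limma adjusted p = 0.979), and the mean of its 2 clusters gave 0.086. *Rplp2*, the partner of *Rplp1* in the stalk, was dim, and its diet effect of 0.34 had a standard error of 0.20, with overlapping groups. Without mouse 1 of the RD-fed wild-type group it was 0.21, and without mouse 3 of the HFD-fed App knock-in group 0.22.

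*Rpl41*, which encodes a very short basic protein at the interface of the subunits, was the bright gene whose diets were apart over all mice. The log2 values were 10.76, 10.74 and 10.65 in RD-fed and 10.89, 10.80 and 10.79 in HFD-fed wild-type mice. Those of App knock-in mice were 10.69, 10.61 and 10.74 on the RD and 10.78, 10.78 and 10.80 on the HFD. All 6 HFD-fed mice, at 10.78 or above, lay above all 6 RD-fed mice, at 10.76 or below. The log2 difference was 0.10 (standard error 0.049, limma adjusted p = 0.995). All 6 HFD-fed above all 6 RD-fed mice was found for 0.169% of all clusters, and *Rpl41* was the only one of the 68 genes. The gene had 5 clusters, of which 4 had higher means on the HFD, by 0.086 to 0.13, and the dimmest a difference of -0.063. In the other 4 clusters the 6 mice of each diet overlapped.

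*Rpl11*, a large subunit protein that also binds the p53 regulator Mdm2, had the largest positive diet effect among the large subunit genes but was dim. Wild-type mice had log2 values of 4.95, 4.33 and 4.40 on the RD and 5.10, 5.02 and 5.15 on the HFD. App knock-in mice had 4.74, 4.84 and 4.55 on the RD and 4.86, 5.07 and 4.90 on the HFD. Within each genotype the HFD-fed mice were above the RD-fed mice, while mouse 1 of the RD-fed wild-type group exceeded some HFD-fed App knock-in mice. The diet effect was 0.38 (standard error 0.11, limma adjusted p = 0.920), and in wild-type mice the difference was 0.53 (standard error 0.15, limma adjusted p = 0.892).

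The gene with the smallest p of the 68 was *Rpl32l*, an *Rpl32*-like gene on chromosome 10, from 20208439 to 20209030 of GRCm38.p6, which RefSeq lists as protein coding with 592 bases. Its log2 values were 4.11, 4.22 and 4.27 in RD-fed and 3.999, 3.86 and 3.73 in HFD-fed wild-type mice. In App knock-in mice they were 4.24, 4.33 and 4.48 on the RD and 3.84, 3.88 and 3.92 on the HFD. All 6 HFD-fed mice were lower than all 6 RD-fed mice. The diet effect was -0.40 (standard error 0.066, limma adjusted p = 0.60), which ranked 7 among 41345 clusters. The same held for 0.106% of all clusters. The whole range of the gene lay below the array medians of 4.78 to 4.84, so that the signal was near that of clusters without clear expression.

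*Rpl32*, the large subunit gene of which *Rpl32l* is a relative, was bright and pointed the other way. Its log2 values were 8.80, 8.83 and 8.86 in RD-fed and 8.89, 8.99 and 8.98 in HFD-fed wild-type mice, which did not overlap. They were 8.74, 8.73 and 8.90 in RD-fed and 8.87, 8.83 and 8.82 in HFD-fed App knock-in mice, which overlapped. The diet effect was 0.0855 (standard error 0.051), and its 95% confidence interval ran from -0.028 to 0.20.

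**Figure D3:**
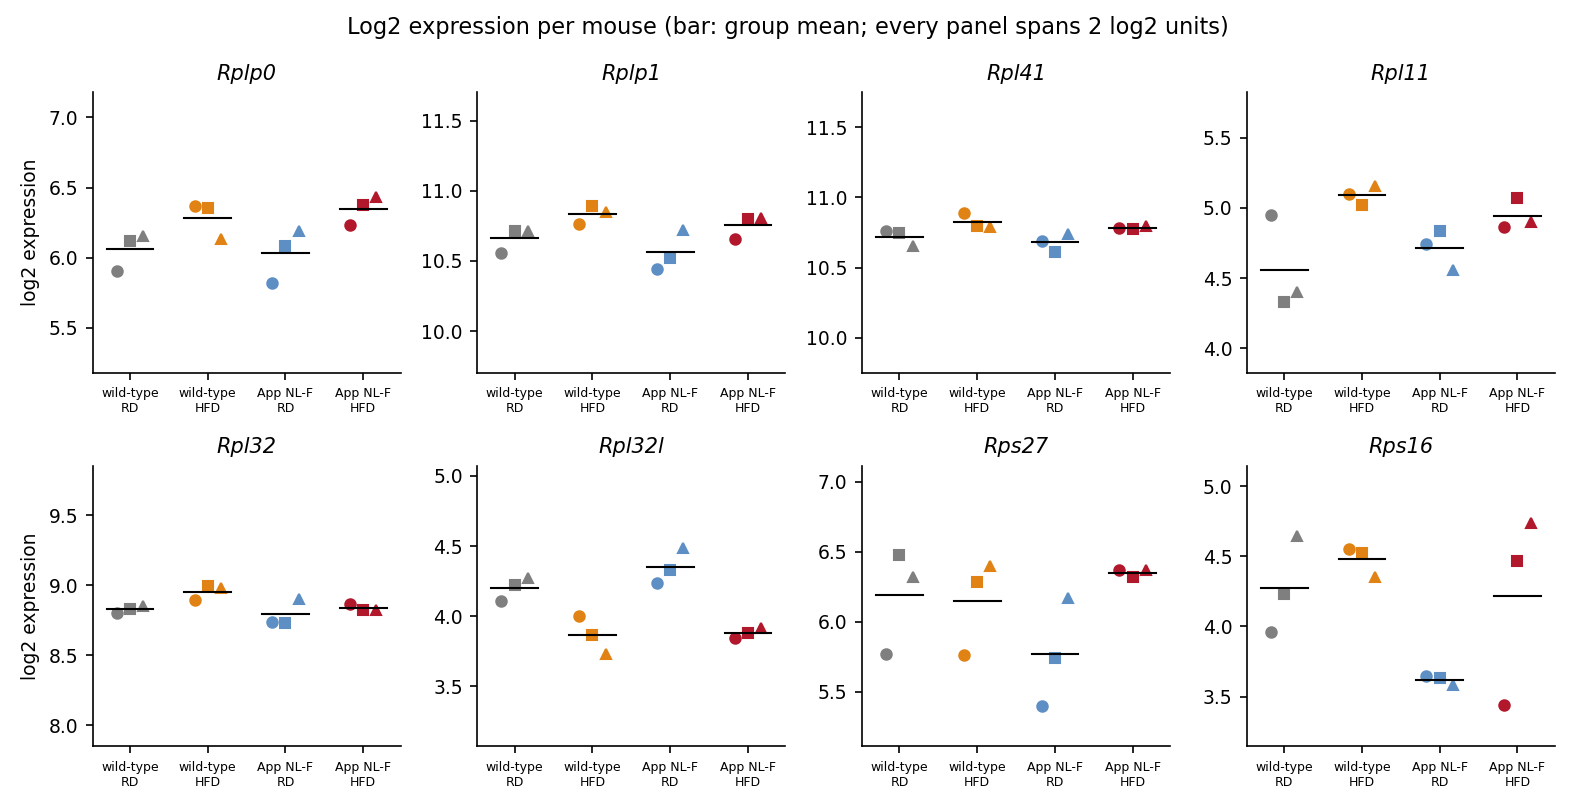
Log2 expression of 8 ribosomal protein genes in each mouse (vertical axis, every panel spanning the same range) by group, with circles, squares and triangles for mouse 1, 2 and 3 and black lines for group means. The HFD-fed mice lie below the RD-fed mice in both genotypes for *Rpl32l* and above them for *Rpl41* and *Rpl11*.

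*Rps27*, a zinc finger protein of the small subunit, was dim and differed by diet in App knock-in mice. It had log2 values of 5.398, 5.74 and 6.17 on the RD and 6.37, 6.32 and 6.37 on the HFD, without overlap. Wild-type mice had 5.77, 6.47 and 6.32 on the RD and 5.76, 6.28 and 6.397 on the HFD, with overlap. The log2 difference in App knock-in mice was 0.58 (standard error 0.23, limma adjusted p = 0.999). Its paralog *Rps27l*, a target of p53, was also dim. It had 5.96, 6.14 and 6.05 in RD-fed and 5.86, 5.91 and 5.52 in HFD-fed wild-type mice, all of the latter lower. In App knock-in mice *Rps27l* had 5.84, 5.83 and 6.07 on the RD and 5.75, 5.83 and 5.89 on the HFD, with overlap. Its diet effect was -0.19 (standard error 0.082, limma adjusted p = 0.995).

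The other paralogs, several of which are known for expression in muscle or testis, were set beside their parent genes by diet effect. *Rpl3*, a core protein near the site of peptide bond formation, had a log2 difference of 0.11 (standard error 0.077) and its striated muscle paralog *Rpl3l* one of -0.026 (standard error 0.066). *Rpl22* differed by 0.021 (standard error 0.075), and *Rpl22l1* by 0.069 (standard error 0.073). The values were 0.082 (standard error 0.13) for the X-linked *Rpl39* and 0.054 (standard error 0.15) for *Rpl39l*. They were 0.0005 (standard error 0.073) for *Rpl7* and 0.0077 (standard error 0.079) for *Rpl7l1*. *Rps4x*, also X-linked, had 0.038 (standard error 0.048), and *Rps4l* had 0.083 (standard error 0.12). *Rpl10l*, a retrogene known for its role in the testis, had 0.22 (standard error 0.13). None of these genes had an unadjusted p under 0.05 for the diet effect. Among them only *Rpl3*, *Rpl7* and *Rps4x* were bright, and all others were dim. The dimmer clusters of *Rpl3* differed by -0.34 and 0.044, and that of *Rpl7* by -0.29.

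By genotype, the genes leaned downward on the RD and showed no lean on the HFD. In RD-fed mice 43 of 68 genes had lower means in App knock-in than in wild-type mice, with a median log2 difference of -0.026 (-0.028 for the large and -0.022 for the small subunit). Over all clusters 49.3% were above 0, with a median of -0.0026. The mitochondrial ribosomal protein genes leaned the same way on the RD, with 43 of 71 lower and a median of -0.024. On the HFD 45 of these 71 were higher, with a median of 0.019. Of the cytosolic genes, 37 of 68 were higher in HFD-fed App knock-in mice than in HFD-fed wild-type mice, against 48.6% of all clusters, with a median of 0.0061. HFD-fed App knock-in mice were above RD-fed wild-type mice in 46 of 68, against 48.4% of all clusters, and over both diets App knock-in mice were higher in 32 of 68, against 48.4%. The count of genes above 0 on the RD, 25 of 68, became 34 without mouse 2 of the RD-fed wild-type group and 33 without mouse 1 of the RD-fed App knock-in group. Without the former the median was 0.0002 over the 68 genes and 0.018 over the small subunit, and without the latter -0.0039 and 0.0070, so that the downward lean on the RD rested on these mice. The RD-fed genotypes did not overlap in 7 genes that were lower in App knock-in mice (5.75% of all clusters), *Rpl3l*, *Rpl7a*, *Rpl13*, *Rpl27*, *Rpl28*, *Rps16* and *Rps28*, and in 1 that was higher, *Rps23* (5.18%).

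*Rps16*, a small subunit protein near the decoding site, gave the largest of these differences and was dim. Its log2 values were 3.96, 4.23 and 4.65 in RD-fed wild-type and 3.65, 3.63 and 3.58 in RD-fed App knock-in mice. On the HFD they were 4.55, 4.53 and 4.35 in wild-type and 3.44, 4.47 and 4.74 in App knock-in mice. The genotypes were apart on the RD and overlapped on the HFD, where mouse 1 of the App knock-in group was the lowest of the 12. The log2 difference was -0.66 (standard error 0.29, limma adjusted p = 0.802) on the RD and the genotype effect -0.46 (standard error 0.20, limma adjusted p = 0.771). Without mouse 1 of the HFD-fed App knock-in group the genotype effect was -0.27.

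*Rpl3l* was dim. It had log2 values of 4.32, 4.06 and 4.06 in RD-fed wild-type mice and 4.01, 3.84 and 3.87 in RD-fed App knock-in mice, without overlap. On the HFD it had 3.93, 3.91 and 4.06 in wild-type and 4.07, 3.95 and 4.07 in App knock-in mice, with overlap. The group means of the genotypes thus differed in opposite directions on the diets, with a log2 difference of -0.24 on the RD (standard error 0.094, limma adjusted p = 0.771), which was -0.15 without mouse 1 of the RD-fed wild-type group. The interaction was 0.30 (standard error 0.13, limma adjusted p = 0.990). *Rpl37a*, a zinc finger protein of the large subunit, was dim and differed by -0.31 on the RD (standard error 0.12, limma adjusted p = 0.783), with overlapping groups.

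*Rpl37*, another zinc finger protein of the large subunit, was dim. On the HFD it had log2 values of 5.396, 5.34 and 5.32 in wild-type and 5.51, 5.76 and 5.71 in App knock-in mice. These groups did not overlap, and the difference was 0.31 (standard error 0.14, limma adjusted p = 0.925). On the RD the genotypes overlapped, at 5.35, 5.62 and 5.34 in wild-type and 5.09, 5.57 and 5.58 in App knock-in mice.

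Over both diets, the bright gene *Rpl15*, a large subunit protein, was higher in App knock-in mice, with a genotype effect of 0.12 (standard error 0.052, limma adjusted p = 0.758). Log2 expression was 10.03, 10.17 and 10.17 in RD-fed and 10.14, 10.11 and 10.06 in HFD-fed wild-type mice. They were 10.14, 10.27 and 10.29 in RD-fed and 10.23, 10.23 and 10.27 in HFD-fed App knock-in mice. On the HFD the genotypes were apart, and on the RD they overlapped. *Rps7*, a small subunit protein that, like *Rpl11*, can bind Mdm2, was dim and lower in App knock-in mice by -0.26 (standard error 0.11, limma adjusted p = 0.752), with overlap on the RD and none on the HFD.

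*Rpsa* and *Rps6*, a pair of small subunit genes with known further roles, were bright. *Rpsa*, which also serves as a laminin receptor, had an SD within groups of 0.083, above the median of the bright genes, with a diet effect of 0.019 (standard error 0.059, 95% confidence interval -0.11 to 0.15) and a genotype effect of 0.13 (standard error 0.059, limma adjusted p = 0.774). *Rps6*, the substrate of S6 kinase downstream of mTORC1, had an SD within groups of 0.053, with a diet effect of 0.020 (standard error 0.049, 95% confidence interval -0.090 to 0.13) and a genotype effect of 0.017 (standard error 0.049). In log2 expression all 12 mice lay between 11.235 and 11.425 for *Rps6*. These arrays measure mRNA and hold no information on the phosphorylation of the protein.

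The bright genes deviated together from mouse to mouse to a modest degree. After the group means were removed, the pairwise Pearson correlation across the 12 mice had a median of 0.17 over the 630 pairs of bright genes and of 0.034 over all pairs of named genes above an intensity of 100. The median was 0.35 over the 91 pairs within the small subunit, 0.12 over the 231 pairs within the large subunit and 0.16 over the 308 pairs between subunits. It was 0.11 over 666 pairs of mitochondrial ribosomal protein genes. Genes on an array share RNA and hybridisation, so that these values are descriptions. The heat map by mouse shows the small subunit genes low in mouse 1 of the RD-fed App knock-in group, where 1 of 14 lay above its own mean, and high in mouse 2 of the HFD-fed App knock-in group, where 13 of 14 did.

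**Figure D4:**
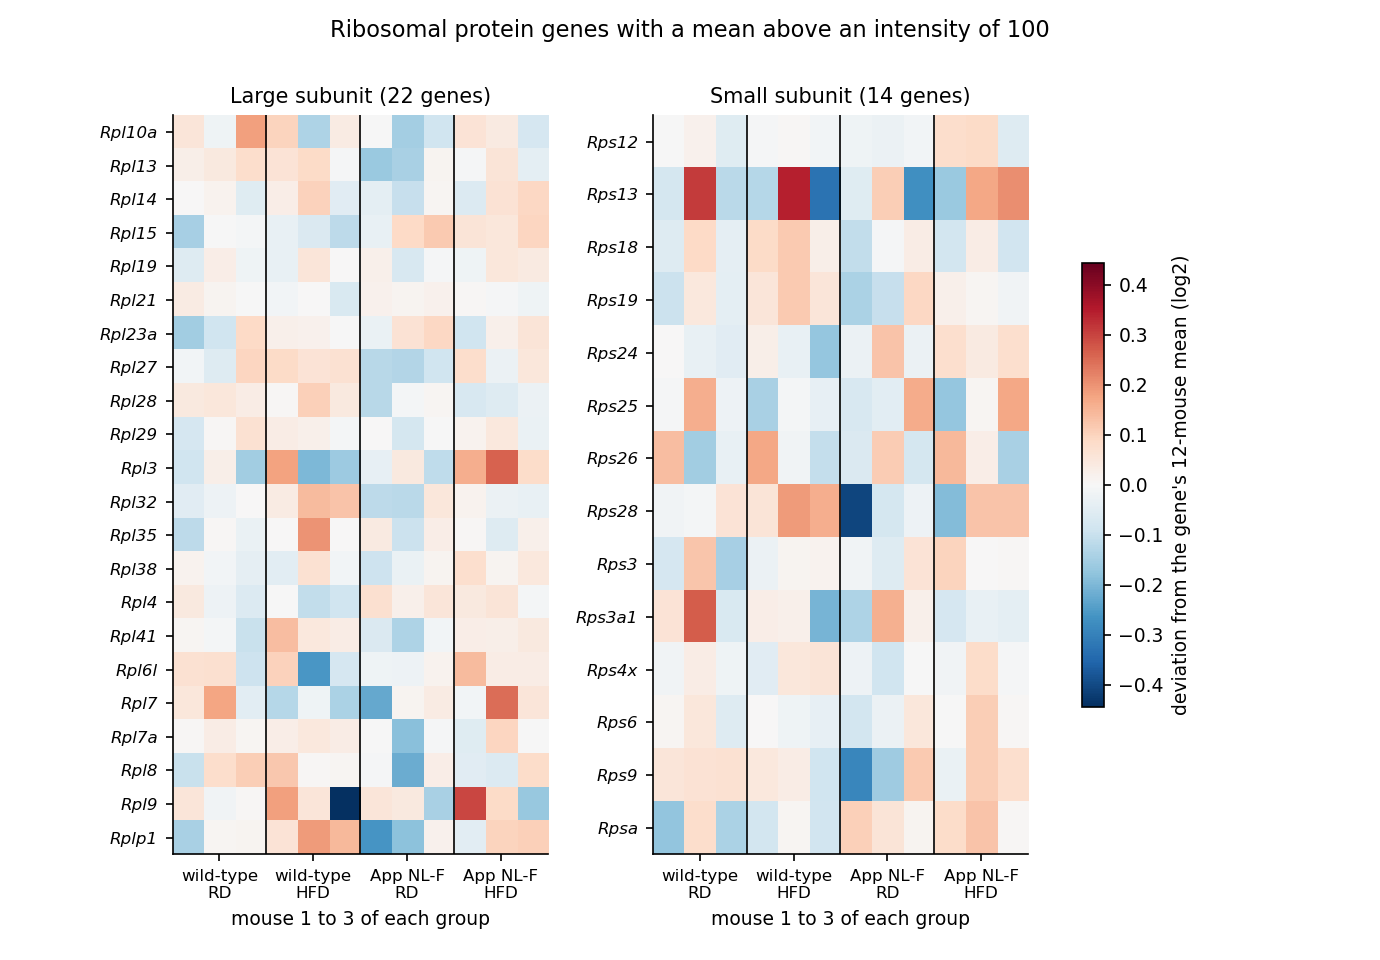
Deviation of each bright ribosomal protein gene from its own mean over 12 mice (colour, log2), with genes in rows, large subunit left and small subunit right, and mice 1 to 3 of each group in columns. In mouse 1 of the RD-fed App knock-in group 1 of 14 small subunit genes lies above its mean, and in mouse 2 of the HFD-fed App knock-in group 13 of 14 do.

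Genes that work with the ribosome were described in the same way, from lists of related genes. *Fau*, which encodes a small subunit protein fused to a ubiquitin-like protein, was measured in a single cluster and had a diet effect of 0.10 (standard error 0.045, limma adjusted p = 0.995). Of 13 measured elongation factors and other TOP mRNAs, 5 had higher means on the HFD, with a median log2 difference of -0.016 and none with an unadjusted p under 0.05 in any comparison. Of 71 mitochondrial ribosomal protein genes, 36 had higher means on the HFD, with a median of 0.0016, and 1, *Mrpl13*, had an unadjusted p under 0.05 (log2 difference -0.18, limma adjusted p = 0.995). The upward lean on the HFD in the cytosolic genes, 53 of 68, thus stood beside 5 of 13 and 36 of 71 in these lists, differences between lists that were not tested.

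Ribosome biogenesis genes, which process and assemble ribosomal RNA and subunits in the nucleolus, had higher means on the HFD in 9 of 24, with a median of -0.023. Of these, *Ltv1*, an assembly factor of the small subunit, had a diet effect of -0.16 (standard error 0.064, limma adjusted p = 0.991). *Gar1*, a component of small nucleolar ribonucleoproteins, had a log2 difference of -0.26 by diet in App knock-in mice (standard error 0.092, limma adjusted p = 0.999). Of the 13 measured genes of mTORC1 and its translation targets, 5 had higher means on the HFD, and *Eif4ebp1*, a repressor of cap-dependent translation that mTORC1 inactivates, had a diet effect of 0.17 (standard error 0.067, limma adjusted p = 0.995). *Mlst8* of the same list differed by diet by -0.20 in wild-type mice (standard error 0.077, limma adjusted p = 0.945) and by 0.064 in App knock-in mice. Its interaction was 0.27 (standard error 0.11, limma adjusted p = 0.979). *Tsc1* had a genotype effect of -0.13 (standard error 0.054, limma adjusted p = 0.763). No gene of these lists passed an adjusted p of 0.05 in any comparison.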

How the data were processed

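Total hippocampal RNA of 12 mice was hybridised to Mouse Gene 2.0 ST arrays. Scans went through Transcriptome Analysis Console, and the authors deposited log2 values for 41345 transcript clusters. How these were summarised and normalized was not stated in the sources used here. No further normalization was added. The number of arrays, 3 per group, limits the precision. The labels number biological replicates, and groups came from the labels. Genes were named through the platform annotation, and positions and sequences came from RefSeq.

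Using limma 3.58.1 (R 4.3.3), lmFit and eBayes were run on all clusters with 4 group means. P-values are two-sided, with Benjamini-Hochberg adjustment across all clusters, and a gene was called at an adjusted p under 0.05. The fit was tested on simulated data. Lists were described by counts and medians, with no test over a list. Members, lists and tests were chosen with earlier results of these data known. Named with values are the genes with an unadjusted p under 0.05 (up to 4 in each direction per comparison, first those without overlap), the stalk genes, *Rpsa*, *Rps6*, paralog pairs, and the 4 steadiest and 4 widest genes. *Rpl41* and *Rpl32* were added after their values were seen. Alternatives were another variance model, a filter on dim clusters, median centring, quantile normalization, fits to the groups compared, a replicate block, the mean of a gene's clusters and leaving out each mouse. Deviations of same-numbered mice from their group means correlated at 0.11 to 0.33 in all 3 wild-type pairs of RD with HFD, and at -0.090 to 0.14 between other groups, with at most 1 of 3 pairs over 0.1. The medians were 0.033 over all 18 such pairs (7 over 0.1) and -0.033 over 36 pairs of unlike number (7 over 0.1). The labels do not say what a number shares, and only the wild-type diet pairs were taken as paired by these values. Protein sequences were not used here. Some ribosomal protein genes are not reported here.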

Additional observations from a re-analysis of the deposited data

How the results depend on the processing

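No ribosomal protein gene passed an adjusted p of 0.05 in any of the 186 combinations of comparison and alternative. The counts of genes above 0 stayed within 1.5 times their value in all 142. Part of this was fixed in advance. Another variance model, fits to the groups compared and the replicate block leave each difference as it is. So does leaving out a mouse of a group outside the comparison. What moved were mostly the few calls among all clusters. With dim clusters left out, 1 cluster was called for HFD-fed App knock-in against HFD-fed wild-type mice, 8 for HFD-fed App knock-in against RD-fed wild-type mice, 12 for genotype, 3 for diet and 5 in the F test. With a trended, robust variance these were 2, 6, 3, 0 and 2, and quantile normalization gave 1 for HFD-fed App knock-in against RD-fed wild-type mice. Leaving out 1 mouse gave 0 to 1 calls between RD-fed genotypes, 0 to 2 between HFD-fed genotypes, 0 to 2 for HFD-fed App knock-in against RD-fed wild-type mice, 1 to 6 for genotype (6 without mouse 2 of the HFD-fed wild-type group), 0 to 1 for diet and 0 to 2 in the F test. The cause was not tested.

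With arrays centred on their median, the median interaction was 0.067 for the large subunit and 0.070 for all 68 genes. Leaving out 1 mouse gave 0.0043 (without mouse 2 of the RD-fed App knock-in group) to 0.062 for the large subunit. It gave 0.0043 to 0.093 (without mouse 2 of the RD-fed wild-type group) for the small subunit median by diet in wild-type mice. Among single genes, effects near 0 changed sign. For genotype, *Rplp0* ran from -0.023 to 0.069 without single mice (also -0.022 and -0.0049) and went to -0.030 with the mean of its clusters, *Rplp1* to 0.0078 with that mean, and *Rps6* ran from -0.0008 to 0.033 without single mice, with -0.0002 in a further fit. For diet, *Rpsa* ran from -0.0050 without mouse 1 to 0.059 without mouse 2 of the RD-fed wild-type group.

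With the replicate block in all 4 groups 0 clusters were called for genotype, and 0 ribosomal protein genes in any comparison. With it in wild-type mice only, a fit chosen after seeing the data, 0 clusters were called by diet, with 2413 at an unadjusted p under 0.05. The median of 0.019 over the 68 genes could not change, since each number occurs once per group and the block then leaves every difference as it is. The block changed no other call. Values of dim genes are close to background and bound little.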
